A study of Mus musculus with 12 samples.

Results

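The effect of a dopamine-neuron toxin on gene expression was compared between 2 brain regions of young mice, gene by gene. The quantity tested for each gene was the striatal effect (lesioned against control) minus the prefrontal effect, called the interaction below, so that a positive value means a higher striatal than prefrontal change on the log2 scale. The comparison takes every library of the series, 12 of 12, in 4 groups of 3. Genes were sorted by whether the effects had opposite signs or lay in 1 region alone.

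All mice carried the C57BL/6J background and were taken at postnatal day 24. The groups were prefrontal cortex and striatum of the 6-hydroxydopamine (6-OHDA) model of attention-deficit/hyperactivity disorder, labelled ADHD in the genotype field, and both regions of controls, labelled CTL. The labels leave out the dose, route and day of the toxin and what the controls received. Nor do they tie a library to an animal, so a p-value here reflects how libraries of a group scatter, which may be technical.

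6-OHDA is taken up by catecholamine neurons and kills them, and dopamine neurons of the midbrain send their axons to the striatum densely and to the prefrontal cortex more sparsely. In the striatum dopamine acts on projection neurons of the direct pathway, which carry the D1 receptor, and of the indirect pathway, which carry the D2 receptor and the opioid peptide precursor Penk. Both regions are bordered by other tissue: the leptomeninges, whose fibroblasts secrete collagens and small proteoglycans, cover the cortex and the ventral forebrain, while the choroid plexus and ependyma line the ventricles beside the striatum.

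Total counts lay between 15078631 and 20925452 per library, which puts the floor of 3 counts at 0.143 to 0.199 CPM (counts scaled to the library total), and 14545 genes were tested. Region labels were checked against markers. The summed level of 16 striatal projection neuron markers was 3868 to 5987 CPM in control striatum and 1779 to 2601 CPM in control prefrontal cortex, and that of 16 cortical excitatory neuron markers 503.1 to 1492 CPM against 3446 to 3569 CPM. A pair of striatal libraries stood apart from their groups. Control striatum 2 held 2494 CPM of 16 choroid plexus and ependymal markers, against 155 and 167.1 CPM in the other controls, and also the 1492 CPM of cortical markers, against 503.1 and 596.2 CPM. Lesioned striatum 1 held 1054 CPM of 22 hypothalamic and basal forebrain border markers, against 2820 and 3144 CPM, and 16850 CPM of projection neuron markers, against 7257 and 10060 CPM. Replicates spread more in striatum, where the biological coefficient of variation was 14.9%, than in prefrontal cortex, where it was 5.78%. Its common value over all 12 libraries was 11.3%. The fit shared its estimate of each gene's spread between the regions. Standard errors may thus be too small in striatum and too large in prefrontal cortex. The tissue was bulk, so that fewer cells of a type and less RNA per cell cannot be told apart in any result.

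The interaction was called for 12 genes, which is 0.0825% of the 14545 tested (edgeR's quasi-likelihood test with Benjamini-Hochberg adjustment, adjusted p below 0.05). Its sign was positive for 2 genes (0.0138%), among them Inhba, and negative for 10 (0.0688%), namely Fmod, Prg4, Slc22a6, Cux2, Slc6a13, Mpzl2, Aldh1a2, Ogn, Cdh1 and Thbd. At an unadjusted p below 0.05 there were 1703 genes, 11.7% of those tested, 854 of them positive and 849 negative. All 12 called genes changed in striatum, with adjusted p between 0.000233 and 0.00852, and none of them was called in prefrontal cortex. Their lesioned and control libraries did not overlap in striatum for 12 of 12, against 26.3% of all tested genes, and in prefrontal cortex for 3 of 12, against 25.6%. The 12 genes were chosen by a test on these same libraries, so the striatal share adds no evidence.

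How many genes were called depended on single libraries. DESeq2 called 116 genes and limma-voom 2. Without control prefrontal library 1 or 2 the count was 0, where edgeR gave 1422 and 1458 genes at an unadjusted p below 0.05. Without lesioned prefrontal library 1, 2 or 3 it was 3, 2 and 1, without control prefrontal library 3 it was 4, and without control striatum 1 it was 6. Without lesioned striatum 2 it was 172, of which 126 were positive. Leaving out both striatal libraries that stood apart gave 101 calls, 50 positive and 51 negative, with all 12 called genes among them. Each of the 12 kept its sign in every setting and with any library left out. With 1 library left out, Fmod was called in 10 of 12 fits, Slc22a6 in 9, Prg4 in 8, Cux2, Slc6a13 and Mpzl2 in 4, Ogn and Cdh1 in 3, Aldh1a2 and Inhba in 2 and Thbd in 1.

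**Figure D1:**
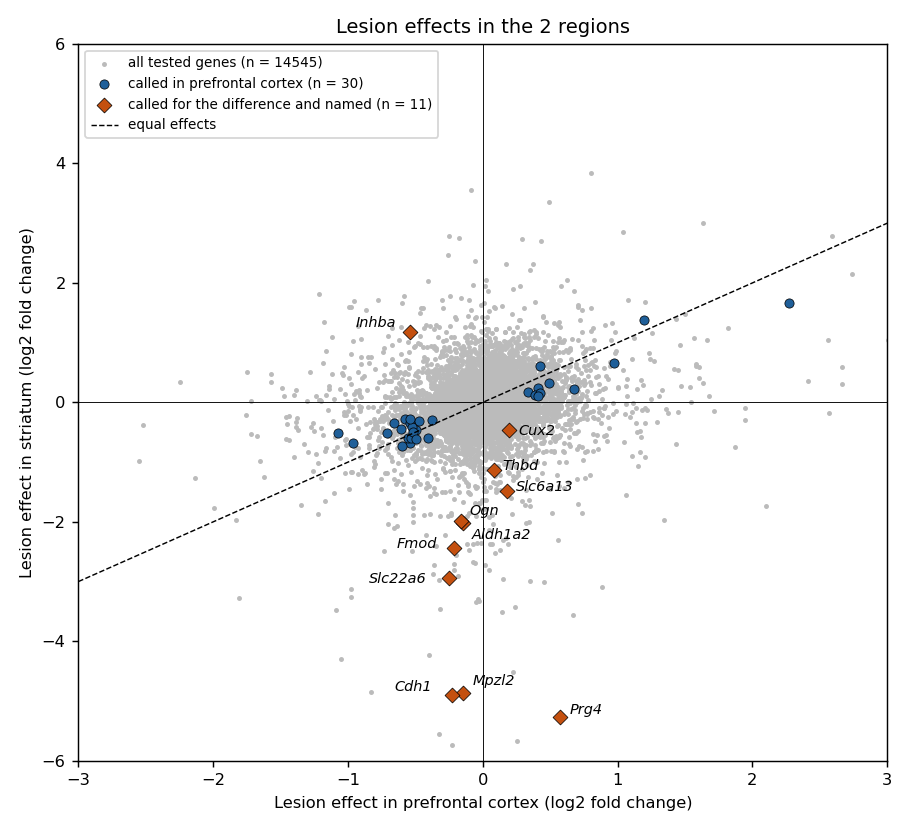
Lesion effect in striatum (y axis, log2 fold change) against that in prefrontal cortex (x axis, log2 fold change), 1 point a gene, with the line of equal effects; 4 genes lie outside the plotted range. The 11 named genes called for the difference (diamonds) spread along the striatal axis from -5.27 for Prg4 to 1.18 for Inhba, while their prefrontal effects lie between -0.54 and 0.57; the 30 genes called in prefrontal cortex (circles) have the same sign in both regions.

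By the classes of the comparison, no gene had opposite effects that were called in both regions, and none was limited to prefrontal cortex. Of the 12, 6 genes were limited to striatum, meaning a called striatal effect and an uncalled prefrontal one whose 95% interval lay within 1.5-fold of no change (0.585 on the log2 scale): Fmod, Cux2, Slc6a13, Aldh1a2, Ogn and Thbd. Among these 6, Cux2, Slc6a13 and Thbd had prefrontal estimates above 0, and the prefrontal 95% interval of Cux2 (0.06 to 0.33) left out 0. Outside this class 2 genes, Prg4 and Inhba, had opposite signs without a call in prefrontal cortex. The other 4, among them Slc22a6, Mpzl2 and Cdh1, had the same sign in both regions with a prefrontal interval that reached past 1.5-fold. The classes follow the width allowed. With a limit of 0.32 on the log2 scale the counts were 5 opposite, 0 limited to striatum and 7 of the same sign, and with 2-fold they were 1, 11 and 0.

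The promoters of 3 called genes are shown: those of Fmod and Aldh1a2, which belong to the largest group of calls described below, and that of Inhba, whose estimates had opposite signs. Each is the 250 bases before the annotated start, 5′ to 3′ on the plus strand, from RefSeq (GRCm38.p6). Capitals mark the TATA motif TATAAA, searched on both strands.
Fmod, chr1:134037004-134037253: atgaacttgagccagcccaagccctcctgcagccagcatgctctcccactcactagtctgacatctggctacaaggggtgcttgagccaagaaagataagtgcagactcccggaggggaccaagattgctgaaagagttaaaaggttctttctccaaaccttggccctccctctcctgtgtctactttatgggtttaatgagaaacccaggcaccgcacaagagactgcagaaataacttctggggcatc
Aldh1a2, chr9:71215539-71215788: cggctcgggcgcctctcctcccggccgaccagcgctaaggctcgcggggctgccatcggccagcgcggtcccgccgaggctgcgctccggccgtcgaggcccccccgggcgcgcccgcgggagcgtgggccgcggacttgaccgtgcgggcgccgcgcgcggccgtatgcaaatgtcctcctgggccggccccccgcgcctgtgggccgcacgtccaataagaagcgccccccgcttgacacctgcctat
Inhba, chr13:16011601-16011850: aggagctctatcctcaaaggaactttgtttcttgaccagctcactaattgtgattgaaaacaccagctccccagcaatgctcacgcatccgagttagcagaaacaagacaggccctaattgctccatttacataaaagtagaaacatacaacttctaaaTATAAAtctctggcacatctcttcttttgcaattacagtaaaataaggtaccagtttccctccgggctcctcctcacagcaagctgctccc
A match to TATAAA was found in the Inhba window, 91 bases before the start, and in 13% of 27025 promoter windows of this length. Promoter entries matched 7 of the 12 called genes, of which 2 held TATAAA, 1 held the GC box GGGCGG (32.9% of all windows), and 0 held the AP-1 motif TGANTCA (6.87%), the cyclic AMP response element TGACGTCA (1.62%) or the forkhead motif GTAAACA (3.09%). No motif searched contains another, and a match describes letters in the window only. GC content was 51.2% for Fmod, 77.6% for Aldh1a2 and 43.2% for Inhba, beside a median of 52% over all windows.

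The largest group of calls had levels in control striatum near those in prefrontal cortex and low levels in lesioned striatum. Fmod encodes fibromodulin, a small leucine-rich proteoglycan that binds collagen fibrils, and lies on chromosome 1 at 134037254 to 134048277 (mm10, as are the positions that follow). Its level was 13.5, 18.2 and 16 CPM in the control striatal libraries and 2.09, 2.62 and 3.75 CPM in the lesioned ones. In prefrontal cortex it was 17.4, 19.5 and 20 CPM in controls and 14.9, 18.6 and 14.7 CPM after the lesion. The lesioned striatal libraries were far below the other 9, which lay close together, and the prefrontal groups overlapped. Fmod fell by 2.43 on the log2 scale in striatum (SE 0.19), to 17.7% of the control mean, beside -0.21 (SE 0.15) in prefrontal cortex. The interaction was -2.22 (SE 0.24, adjusted p = 0.0125).

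Ogn encodes osteoglycin, another proteoglycan of this family, and lies on chromosome 13 at 49608046 to 49624501. It stood at 5.88, 9.65 and 7.15 CPM in control striatum and at 1.61, 2.11 and 1.75 CPM in lesioned striatum, without overlap. All 6 prefrontal libraries lay between 6.11 and 9.02 CPM, with the groups overlapping. The striatal effect was -1.98 (SE 0.21), the prefrontal -0.16 (SE 0.18) and the interaction -1.82 (SE 0.28, adjusted p = 0.0393).

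Aldh1a2 encodes a retinaldehyde dehydrogenase that makes retinoic acid and lies on chromosome 9 at 71215789 to 71296243. Its striatal values were 5.07, 6.27 and 6.18 CPM in controls and 1.13, 1.08 and 1.93 CPM after the lesion, and its prefrontal values 5.14 to 7.1 CPM over both groups. Again only the lesioned striatal libraries were low, at 23.7% of the control mean. The striatal effect was -2.01 (SE 0.21), the prefrontal -0.15 (SE 0.18) and the interaction -1.87 (SE 0.28, adjusted p = 0.0393).

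Transporter genes were also among this group of calls. Slc6a13, which encodes a GABA and taurine transporter, lies on chromosome 6 at 121300227 to 121337733 and stood at 8.38, 9.16 and 7.2 CPM in control striatum and 2.21, 2.85 and 3.39 CPM in lesioned striatum. Prefrontal values of Slc6a13 were 6.33 to 8.56 CPM in controls and 7.42 to 9.92 CPM after the lesion, which overlap. Its interaction was -1.67 (SE 0.24, adjusted p = 0.0378), from -1.49 (SE 0.18) in striatum and 0.18 (SE 0.16) in prefrontal cortex. Slc22a6 encodes an organic anion transporter known from the kidney and lies on chromosome 19 at 8618039 to 8628299. It stood at 4.19, 6.15 and 4.88 CPM in control striatum and 0.537, 0.626 and 0.726 CPM in lesioned striatum, while prefrontal cortex held 5.72 to 7.89 CPM in controls and 4.51 to 7.01 CPM after the lesion. The lesioned striatal libraries of Slc22a6 were 12.4% of the control mean and the prefrontal groups overlapped. The interaction was -2.68 (SE 0.34, adjusted p = 0.0161), with a striatal effect of -2.93 (SE 0.27) and a prefrontal of -0.25 (SE 0.20).

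Prg4, Mpzl2 and Cdh1 were almost without counts in lesioned striatum. Prg4 encodes the lubricating proteoglycan 4 (chromosome 1, 150449412 to 150466165). It had 45, 59 and 30 counts in control striatum and 0, 3 and 0 in lesioned striatum, against 80, 56 and 84 in control and 106, 117 and 117 in lesioned prefrontal cortex. In CPM the prefrontal values were 3.82, 3.37 and 5.57 in controls and 5.32, 6.67 and 6.68 after the lesion, which overlap, so that the estimates had opposite signs but the prefrontal one did not pass (0.57, SE 0.30, adjusted p = 0.537). Summed counts of Prg4 in lesioned striatum were 2.23% of those in control striatum, with an exact 95% interval of 0.455% to 6.66% that covers counting error only. The fitted interaction was -5.85 (SE 0.72, adjusted p = 0.0161), a value that depends on the prior count and was -9.01 without lesioned striatum 2, which held all 3 counts.

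Mpzl2, which encodes an adhesion protein of the immunoglobulin superfamily (chromosome 9, 45039799 to 45054015), had 21, 52 and 28 counts in control and 0, 2 and 1 in lesioned striatum. Cdh1 encodes the epithelial adhesion protein E-cadherin (chromosome 8, 106603351 to 106670246) and had 19, 54 and 31 counts in control and 0, 1 and 2 in lesioned striatum. Prefrontal libraries had 44 to 52 counts of Mpzl2 and 43 to 71 of Cdh1, with overlapping groups. The highest control striatal value of both was that of library 2, the one rich in choroid plexus transcripts. This library was also the highest striatal control for Fmod, Ogn, Aldh1a2, Slc6a13, Slc22a6 and Prg4, but not for Thbd or Cux2. Its part in these calls was not tested. Without it and lesioned striatum 1, all 12 called genes were still called. Summed counts in lesioned striatum were 2.96% (0.601% to 8.9%) of control for Mpzl2 and 2.88% (0.584% to 8.64%) for Cdh1. Fitted interactions were -4.72 (SE 0.69, adjusted p = 0.0378) for Mpzl2 and -4.67 (SE 0.72, adjusted p = 0.0393) for Cdh1.

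Thbd encodes thrombomodulin, the thrombin receptor known from vessel linings, and lies on chromosome 2 at 148404466 to 148408188. Its level was 8.38, 8.18 and 9.8 CPM in control striatum and 3.94, 3.81 and 3.75 CPM in lesioned striatum, without overlap, and 11.2 to 15.6 CPM in all 6 prefrontal libraries. Thbd fell by 1.13 on the log2 scale in striatum (SE 0.15), with a prefrontal estimate of 0.08 (SE 0.13) and an interaction of -1.21 (SE 0.19, adjusted p = 0.0486). Endothelial and mural markers, 15 genes, summed to 384.7 to 428.6 CPM in lesioned and 429.6 to 491.1 CPM in control striatum, and to 430.2 to 463.1 and 461.7 to 543.1 CPM in prefrontal cortex. Of these 15, 4 fell in striatum, against 3% of all tested genes, and 0 were called for the interaction by edgeR or DESeq2 (4 at an unadjusted p below 0.05, against 11.7% of all genes, median 0); their part in the result for Thbd was not tested.

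**Figure D2:**
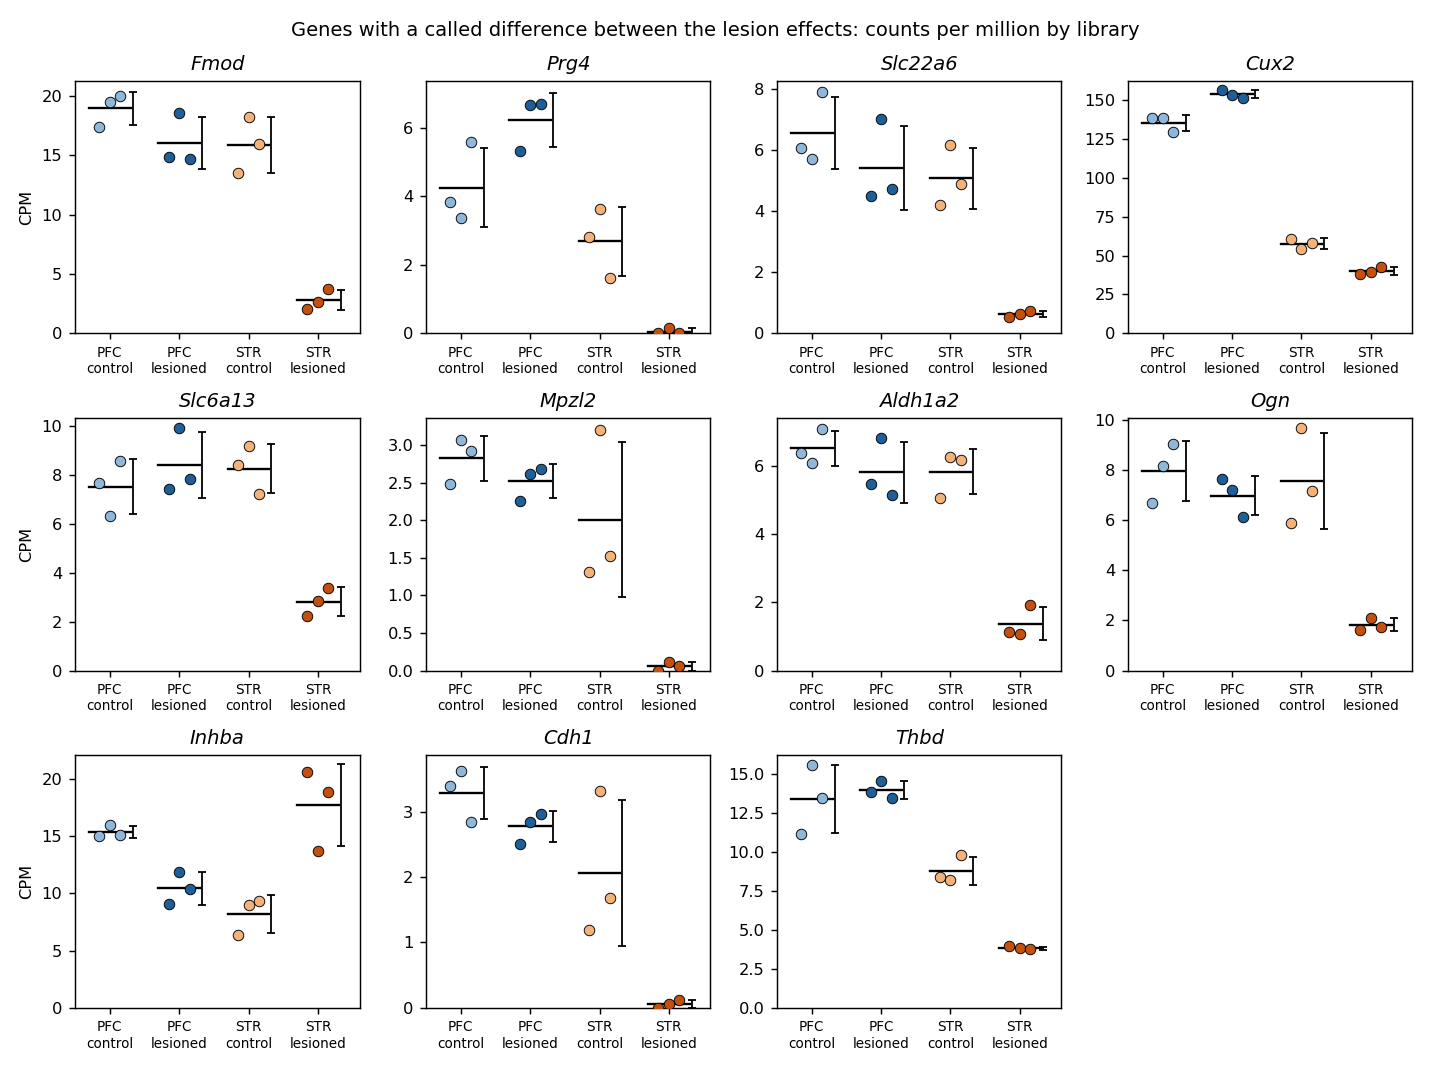
Level of 11 called genes (y axis, CPM, linear and starting at 0) in the 4 groups; points are libraries, bars the mean and the brackets 1 SD (n = 3). In 9 panels, those other than Inhba and Cux2, the lesioned striatal libraries lie below all others. For Thbd control striatum also lies below prefrontal cortex. Inhba is lower after the lesion in prefrontal cortex and higher in striatum, and Cux2 is higher after the lesion in prefrontal cortex and lower in striatum.

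Meningeal fibroblast markers, some of which are among these genes, had negative interactions. Fmod, Ogn, Aldh1a2 and Slc6a13 are 4 of the 14 members of that marker list, which was written with earlier results of these data known. The counts and medians that follow include these 4. All 14 members had an interaction below 0 (from -2.22 to -0.22), 11 of 14 at an unadjusted p below 0.05, against 5.84% of all tested genes in that direction, and 4 were called. In striatum 12 of 14 fell, against 3% of all genes, and in prefrontal cortex none was called. The 3 members that missed the unadjusted threshold for the interaction, Lum, Bgn and Foxc1, were picked out after their values were seen (-1.28, SE 0.89; -0.22, SE 0.24; and -0.36, SE 0.30). With 1 library left out they ranged from -2.09 to -0.40, from -0.43 to -0.08 and from -0.55 to -0.21. The list median was -1.39 for the interaction, -1.46 in striatum and -0.15 in prefrontal cortex, where the medians of all genes were 0, 0 and 0.01.

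Summed over the meningeal list, lesioned striatum held 162.8, 335.6 and 239.1 CPM and control striatum 539, 648.8 and 529 CPM, while the 6 prefrontal libraries held 689.8 to 823.7 CPM. No member of this list was at 0 throughout a group. The lesioned striatal libraries were thus below all other 9, and prefrontal groups overlapped. Whether the amount of meningeal tissue in the striatal samples has a part in the called differences was not tested. Without the striatal pair that stood apart the list median was -1.04, and 5 members were called.

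**Figure D3:**
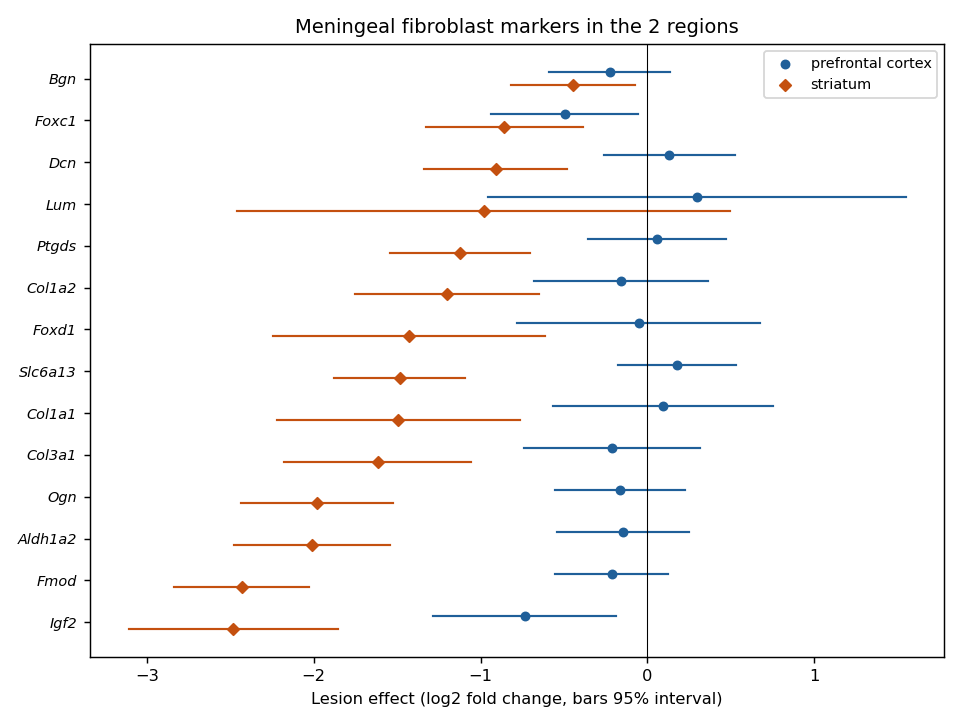
Lesion effect (x axis, log2 fold change with its 95% interval) of the 14 meningeal fibroblast markers in prefrontal cortex (circles) and striatum (diamonds). Striatal effects lie between -2.48 and -0.45 and prefrontal effects between -0.74 and 0.30.

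Inhba and Cux2 were the called genes whose libraries were apart in both regions with opposite signs. Inhba encodes the beta A subunit of activin and inhibin, signalling proteins of the TGF-beta family that neurons make in an activity-dependent way, and lies on chromosome 13 at 16011851 to 16031621. Its prefrontal values were 15, 16 and 15.1 CPM in controls and 9.03, 11.9 and 10.4 CPM after the lesion, and its striatal values 6.32, 8.97 and 9.37 CPM in controls and 20.6, 13.7 and 18.9 CPM after it. Every lesioned prefrontal library lay below every control and every lesioned striatal library above every control. Inhba rose by 1.18 on the log2 scale in striatum (SE 0.19, adjusted p = 0.00852), while the prefrontal estimate of -0.54 (SE 0.19, adjusted p = 0.284) did not pass. The interaction was 1.72 (SE 0.26, adjusted p = 0.0393).

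Cux2 differed in the other direction, with a smaller effect. It encodes a homeobox factor of upper-layer cortical neurons (chromosome 5, 121856366 to 122050102) and is on the list of cortical excitatory markers. Prefrontal levels were 138, 138 and 129 CPM in controls and 156, 153 and 151 CPM after the lesion, and striatal levels 60.8, 54 and 58.1 CPM in controls and 37.9, 39.4 and 42.6 CPM after it. Libraries were apart in both regions, lesioned above control in prefrontal cortex and below it in striatum. Cux2 fell by 0.46 on the log2 scale in striatum (SE 0.07), with 0.20 (SE 0.06, adjusted p = 0.25) in prefrontal cortex and an interaction of -0.66 (SE 0.09, adjusted p = 0.0287). The control striatal library rich in other cortical markers had the lowest Cux2 value of the 3 controls. The part of cortical tissue in the result for Cux2 was not tested.

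Striatal projection neuron markers had positive interactions throughout, none of them called. Of the 16 markers 0 were called for the interaction by edgeR, 16 had an unadjusted p below 0.05 with a positive sign (5.87% of all genes), and DESeq2 called 5. The median was 1.47 for the interaction, 1.28 in striatum and -0.29 in prefrontal cortex. In striatum 11 of 16 rose, against 4.15% of all tested genes, and libraries did not overlap for 15 of 16, against 26.3%. In prefrontal cortex none was called and 14 of 16 estimates were below 0, beside 6993 of all 14545 tested genes. Prefrontal libraries did not overlap for 2 of 16, against 25.6% of all tested genes. Control prefrontal library 3 held 2601 CPM of these markers, against 1779 and 2063 CPM in the other controls. Lesioned prefrontal libraries held 1662 to 1999 CPM. The part of control prefrontal library 3 in the negative prefrontal estimates, and so in the interaction, was not tested. Without lesioned striatum 1, the library richest in these transcripts, the median interaction was 1.06. Without both striatal libraries that stood apart it was 0.91 with 3 calls.

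Pde10a, a phosphodiesterase that breaks down cyclic AMP and cyclic GMP in projection neurons, shows the pattern by library. Its level was 552, 407 and 590 CPM in control and 2370, 910 and 1310 CPM in lesioned striatum, and 101, 142 and 213 CPM in control and 118, 75.7 and 102 CPM in lesioned prefrontal cortex. Lesioned striatal libraries were all above control, with library 1 far above the others, and the prefrontal groups overlapped. The interaction of Pde10a was 2.26 (SE 0.49, adjusted p = 0.198), from 1.66 (SE 0.35) in striatum, which passed (adjusted p = 0.0243), and -0.60 (SE 0.35) in prefrontal cortex. Among the other members with the smallest p were the dopamine-regulated phosphatase inhibitor Ppp1r1b with an interaction of 1.71 (SE 0.47) and the transcription factor Foxp1 with 1.34 (SE 0.31). Neither passed for the interaction (adjusted p = 0.278 and 0.212). Foxp1 was not higher in control striatum, at 110, 92.7 and 121 CPM, than in control prefrontal cortex, at 106, 126 and 130 CPM.

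Markers of the indirect pathway had a higher median interaction than those of the direct pathway, a difference that was not tested. The 8 markers of D2 neurons had a median interaction of 1.19, with 8 of 8 above 0, beside 7218 of all 14545 tested genes. Of the 8, 5 had an unadjusted p below 0.05, against 5.87% of all tested genes in that direction. For the interaction 0 were called by edgeR and 1 by DESeq2. Penk had 506, 332 and 556 CPM in control and 1290, 791 and 1070 CPM in lesioned striatum, and 54.7, 72.4 and 127 CPM in control and 67.2, 46.1 and 71.2 CPM in lesioned prefrontal cortex. Penk rose in striatum from 465 ± 118 to 1049 ± 248 CPM (SD, n = 3, adjusted p = 0.0332 by edgeR), where groups did not overlap, with -0.43 (SE 0.31) in prefrontal cortex and an interaction of 1.69 (SE 0.43, adjusted p = 0.239). Drd2, the D2 receptor gene itself, was at 78.1, 50.9 and 83.9 CPM in control and 280, 127 and 183 CPM in lesioned striatum. Prefrontal Drd2 was 3.82, 8.56 and 18.4 CPM in controls and 7.82, 2.22 and 5.94 CPM after the lesion, a wide and overlapping spread. Its interaction was 2.42 (SE 0.71, adjusted p = 0.305). Gpr52, an orphan receptor of these neurons, had 1.92 (SE 0.43, adjusted p = 0.208) and Adora2a, an adenosine receptor gene, 2.20 (SE 0.79, adjusted p = 0.345), which was 1.33 without control prefrontal library 3.

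The 9 markers of D1 neurons had a median interaction of 0.68, with 9 of 9 above 0 and 0 called by edgeR or DESeq2. Of the 9, 4 had an unadjusted p below 0.05, against 5.87% of all tested genes in that direction. Drd1, the D1 receptor gene, had 1.46 (SE 0.52, adjusted p = 0.341), Slc35d3, a membrane protein gene of these neurons, 1.79 (SE 0.63), the muscarinic receptor Chrm4 0.68 (SE 0.30) and the dynorphin precursor Pdyn 0.62 (SE 0.25). The substance P precursor Tac1 had 0.83 (SE 0.40, adjusted p = 0.449). Without lesioned striatum 1 the interaction was 0.33 for Chrm4 and 0.47 for Tac1, and without control prefrontal library 3 it was 1.10 for Slc35d3 and 0.51 for Tac1. Chrm4 rose in striatum from 28.8 ± 2.87 to 54.5 ± 19.2 CPM (SD, n = 3, adjusted p = 0.0242 by edgeR). It was the only one of the 9 called higher there, against 4.15% of all tested genes. Its prefrontal estimate was positive as well, at 0.32 (SE 0.22).

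**Figure D4:**
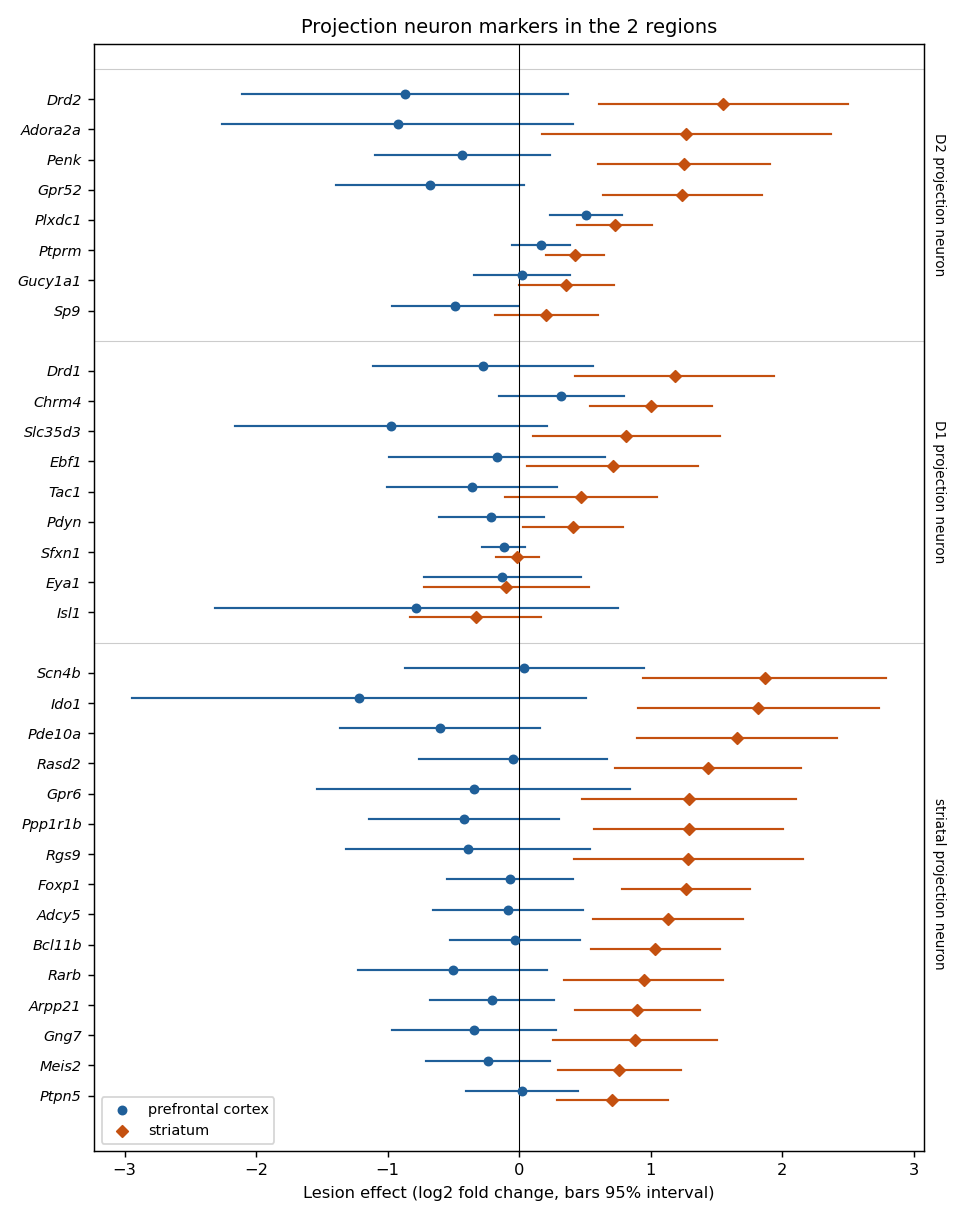
Lesion effect (x axis, log2 fold change with its 95% interval) of projection neuron markers, grouped by list, in prefrontal cortex (circles) and striatum (diamonds). For the 15 shared markers drawn, striatal effects lie between 0.71 and 1.87 and prefrontal effects between -1.22 and 0.04.

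Dopamine signalling genes overlapped with these lists in part. Of 23 tested members 0 were called by edgeR for the interaction and 4 by DESeq2, and the median was 0.84 (striatum 0.71, prefrontal cortex -0.09). Of the 23, 14 had an unadjusted p below 0.05 with a positive sign, against 5.87% of all tested genes. With a negative sign there was 1, against 5.84%. Rgs4, which limits signalling by G proteins, is also abundant in cortex. It stood at 229, 218 and 331 CPM in control and 989, 468 and 538 CPM in lesioned striatum, and at 822, 821 and 802 CPM in control and 725, 737 and 775 CPM in lesioned prefrontal cortex. Both pairs of groups were apart, in opposite directions, and the interaction was 1.55 (SE 0.36, adjusted p = 0.208), with a rise of 1.44 (SE 0.26, adjusted p = 0.013) in striatum and -0.11 (SE 0.25) in prefrontal cortex. Arpp19, a regulated phosphatase inhibitor, had an interaction of 1.33 (SE 0.30) and Rgs2 of 0.84 (SE 0.21).

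Of 11 tested genes for making, moving and breaking down dopamine, 0 were called for the interaction by edgeR or DESeq2, and 3 had an unadjusted p below 0.05 (11.7% of all tested genes). The median was 0.18. Only Qdpr, which recycles the cofactor of dopamine synthesis, was called in striatum, where it rose by 0.56 on the log2 scale (SE 0.10, adjusted p = 0.0161), with 0.17 (SE 0.11) in prefrontal cortex and an interaction of 0.39 (SE 0.15, adjusted p = 0.364). Th, the rate-limiting enzyme of dopamine synthesis, was at 7.93, 3.01 and 3.45 CPM in control and 2.16, 2.85 and 2.57 CPM in lesioned prefrontal cortex. In striatum Th was at 12.3, 7.31 and 12.2 CPM in controls and 9.06, 11.8 and 14 CPM after the lesion. The prefrontal groups were apart and the striatal groups overlapped, with an interaction of 1.12 (SE 0.46, adjusted p = 0.384) that was 0.53 without control prefrontal library 1, the highest of its group. The dopamine transporter gene Slc6a3 had 2 to 18 counts in each library and was not tested. Ddc, which makes dopamine from its precursor, had 0.34 (SE 0.25; 0.14 without lesioned striatum 2), the vesicular transporter Slc18a2 0.12 (SE 1.10), and the monoamine oxidase Maob 0.35 (SE 0.13). The cell bodies of midbrain dopamine neurons lie in neither region, so these counts do not measure their loss.

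Of 26 serotonin, adrenergic and muscarinic receptor genes, 0 were called for the interaction by edgeR, 8 had an unadjusted p below 0.05 (11.7% of all tested genes) and DESeq2 called 2. Estimates had opposite signs in the regions for 12 of the 26, beside 5693 of all 14545 tested genes. Htr1b, the serotonin 1B receptor, was at 45.4, 30.2 and 48.6 CPM in control and 112, 64.7 and 76.2 CPM in lesioned striatum, and at 14.1, 17.2 and 18.2 CPM in control and 11.7, 11.7 and 12 CPM in lesioned prefrontal cortex. Libraries of Htr1b did not overlap in either region, above control in striatum and below it in prefrontal cortex. It rose by 1.11 in striatum (SE 0.22, adjusted p = 0.0191), with -0.46 (SE 0.24) in prefrontal cortex and an interaction of 1.57 (SE 0.33, adjusted p = 0.163) that did not pass. The muscarinic receptor Chrm3 went the other way, at 70.2, 72.3 and 64.9 CPM in control and 90.7, 91.4 and 90.8 CPM in lesioned prefrontal cortex, and 31.8, 39.9 and 32.6 CPM in control and 28.7, 30.6 and 24.4 CPM in lesioned striatum. Its interaction was -0.66 (SE 0.14, adjusted p = 0.193), with 0.41 (SE 0.10) in prefrontal cortex and -0.25 (SE 0.10) in striatum, neither called. The inward-rectifier potassium channel gene Kcnj2 had 1.60 (SE 0.35, adjusted p = 0.198), from 0.75 (SE 0.24) in striatum and -0.85 (SE 0.25) in prefrontal cortex.

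In 4 other pathway lists edgeR called 1 gene for the interaction, Aldh1a2 of the 17 retinoic acid genes, and 0 of 17 Notch, 40 axon guidance and 30 extracellular matrix genes. At an unadjusted p below 0.05 there were 6, 3, 14 and 6 of them, where 11.7% of all tested genes passed, and DESeq2 called 3, 1, 1 and 2. Hes1, a Notch target and repressor, had 6.45, 5.79 and 7.69 CPM in control and 9.83, 10 and 8.39 CPM in lesioned prefrontal cortex, against 6.25, 6.09 and 3.9 CPM in control and 2.74, 3.47 and 2.42 CPM in lesioned striatum. Groups were apart in both regions, higher after the lesion in prefrontal cortex and lower in striatum, where Hes1 fell by 0.84 on the log2 scale (SE 0.20, adjusted p = 0.0332). Its interaction was -1.36 (SE 0.27, adjusted p = 0.14). The fibronectin gene Fn1 fell by 0.76 in striatum (SE 0.07), with -0.20 (SE 0.07) in prefrontal cortex and an interaction of -0.56 (SE 0.10, adjusted p = 0.108). Beside Aldh1a2, the retinoic acid genes with the smallest p were Stra6, a cell-surface receptor for retinol-binding protein, with -2.03 (SE 0.49, adjusted p = 0.224), the receptor Rara with -0.70 (SE 0.18) and the receptor Rxrg with 1.96 (SE 0.53). The axon guidance gene Sema5a had -0.88 (SE 0.19, adjusted p = 0.202).

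A pair of list medians rested on the control striatal library rich in choroid plexus transcripts. The 14 tested choroid plexus and ependymal markers had a median interaction of -1.73, with 0 called by edgeR and 1 by DESeq2. At an unadjusted p below 0.05 there were 3, all negative, against 5.84% of all tested genes in that direction. Without control striatum 2 the median was -0.56, and without the striatal pair -0.30. Ttr, which encodes transthyretin and is abundant in choroid plexus, was counted at 83, 33996 and 632 counts in control and 1, 30 and 16 in lesioned striatum. It had 4, 0 and 4 counts in control and 7, 480 and 1 in lesioned prefrontal cortex, so that 1 library decided each region's mean. The potassium channel gene Kcnj13 was at 0 counts in all lesioned striatal libraries. The 16 cortical excitatory markers had a median of -0.55, which was 0.43 without control striatum 2, and their called member was Cux2.

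Interferon-response genes had mostly negative interactions, none of which passed. All 26 were tested, and 23 had an interaction below 0, beside 7327 of all 14545 tested genes. The median was -0.40 (prefrontal cortex 0.25, striatum -0.08). However, 0 had an unadjusted p below 0.05, against 11.7% of all tested genes, and 0 were called by edgeR or DESeq2. Without control striatum 2 the median was -0.20. The 10 tested genes of reactive astrocytes and inflammation had a median of -0.60 with 0 called. Of the 10, 2 had an unadjusted p below 0.05 with a negative sign, against 5.84% of all tested genes. The median of this list was -0.24 without control striatum 2 and -0.38 without lesioned striatum 3. Clock genes had a median of 0.28 with 0 of 18 called by either tool, and the median was 0.12 without lesioned striatum 1. Of the 18, 6 had an unadjusted p below 0.05 with a positive sign, against 5.87% of all tested genes. In striatum 9 of the 18 clock genes rose, against 4.15% of all tested genes.

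**Figure D5:**
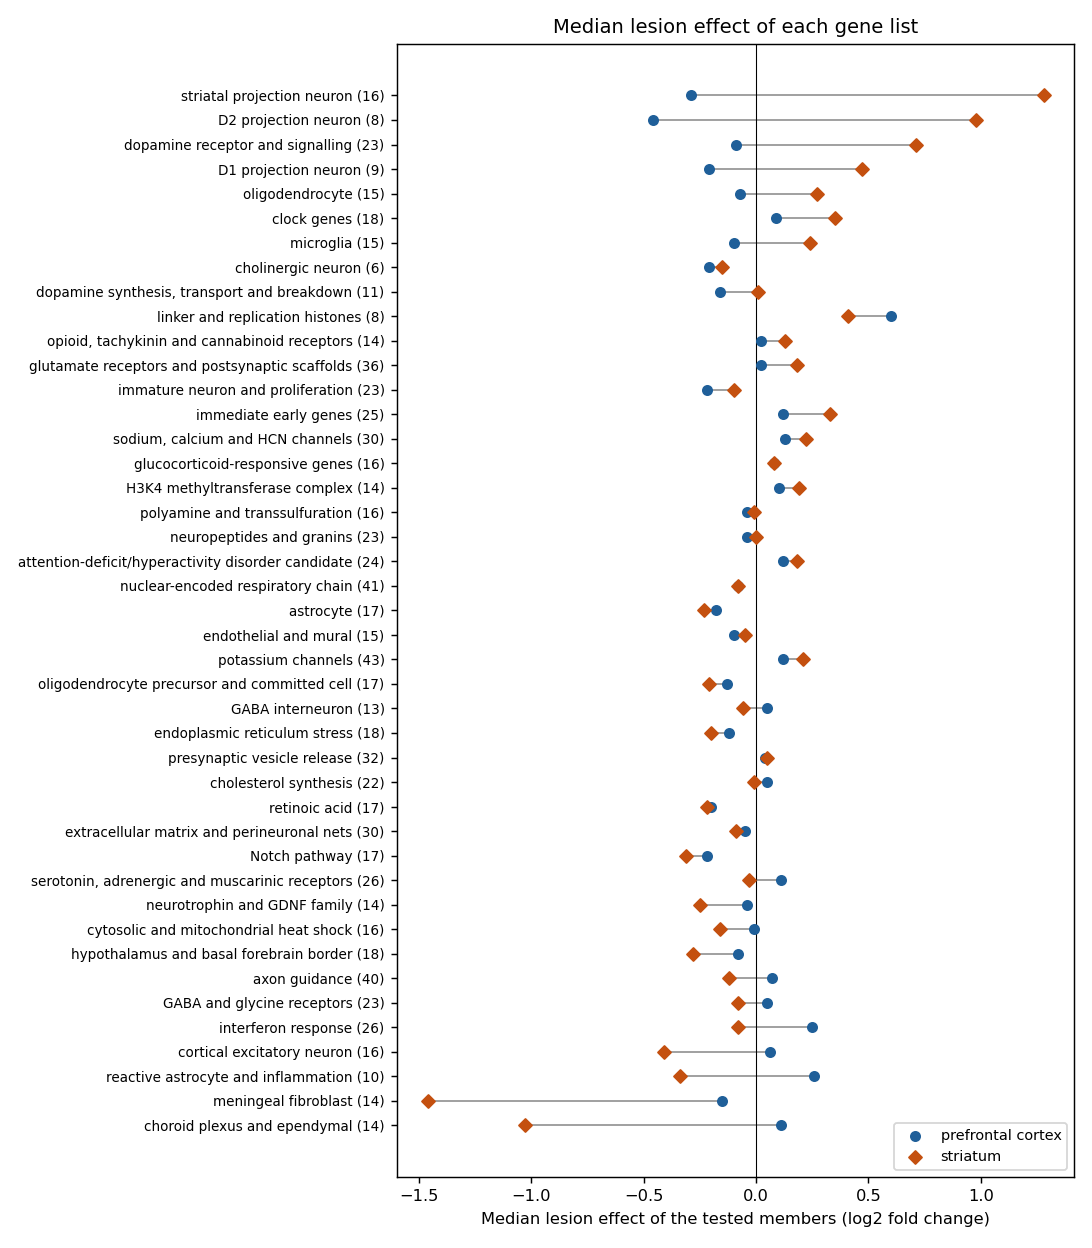
Median lesion effect of each gene list (x axis, log2 fold change) in prefrontal cortex (circles) and striatum (diamonds), ordered by the median interaction, with the number of tested members in brackets. The striatal projection neuron and D2 neuron lists have striatal medians furthest above the prefrontal ones (1.28 against -0.29 and 0.98 against -0.46), and the meningeal and choroid plexus lists furthest below (-1.46 against -0.15 and -1.03 against 0.11); the choroid plexus and cortical medians rest on 1 control library.

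The genes called in prefrontal cortex were set beside striatum to look for effects limited to cortex. There were 30 (0.206% of those tested), 11 higher (0.0756%) and 19 lower (0.131%), and 1040 in striatum (7.15%). All 30 had the same sign in striatum, where 60.9% of all tested genes had the same sign in both regions, 20 of the 30 were also called there, and 25 did not overlap there, against 26.3% of all genes. None of the 30 had a called interaction and 9 had an unadjusted p below 0.05, against 11.7% of all genes. Their median absolute effect was 0.54 in prefrontal cortex and 0.46 in striatum. Conversely, the 1040 genes called in striatum had a median absolute effect of 0.59 there and 0.16 in prefrontal cortex, 77.1% had the same sign in both, and 582 had an unadjusted interaction p below 0.05. Each set was chosen by its own region's effect, which the interaction also contains.

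Cbs, which encodes cystathionine beta-synthase, a transsulfuration enzyme, is an example of a change shared by both regions. It fell from 39.6, 34.8 and 41.3 to 18.1, 21.8 and 18.5 CPM in prefrontal cortex and from 45.9, 44.4 and 39.2 to 20.8, 30.5 and 25.9 CPM in striatum, without overlap in either. The interaction of Cbs was 0.28 with a 95% interval of -0.07 to 0.63. For Smox, the spermine oxidase gene, it was -0.13 (-0.34 to 0.08), for the histone methyltransferase gene Kmt2a -0.16 (-0.35 to 0.03) and for the linker histone gene H1f4 -0.61 (-1.54 to 0.33), whose counts may be shared with close copies. These intervals bound how far the effects could differ and do not show that they were equal.

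Among the 30 prefrontal calls, Nrarp, Pla2g3, Kmt2c, Slc9a3r1, Elovl2 and Elmsan1 were not called in striatum although their libraries did not overlap there. Of these, Pla2g3, which encodes a secreted phospholipase, had the largest interaction in size, at 0.55 (SE 0.23, adjusted p = 0.396), from -1.07 (SE 0.16) in prefrontal cortex and -0.52 (SE 0.17) in striatum. Striatal libraries overlapped for Mycbp2, Slc9a8, Trib1 and Vps13c, not called in striatum, and for Utp14b. Both sets were picked out after their values were seen. Vps13c, a lipid transfer protein gene, stood at 115, 112 and 111 CPM in control and 146, 152 and 145 CPM in lesioned prefrontal cortex, against 142, 156 and 133 CPM in control and 142, 148 and 154 CPM in lesioned striatum. It rose by 0.41 on the log2 scale in prefrontal cortex (SE 0.07, adjusted p = 0.0331), with 0.11 (SE 0.06, adjusted p = 0.313) in striatum and an interaction of -0.30 (SE 0.09, adjusted p = 0.311). The ubiquitin ligase gene Mycbp2 had an interaction of -0.26 (SE 0.09), the sodium-proton exchanger Slc9a8 -0.27 (SE 0.10), the pseudokinase Trib1 -0.45 (SE 0.16) and Utp14b, a factor of ribosome assembly, -0.31 (SE 0.24). The adjusted p of these 4 lay between 0.325 and 0.647. Utp14b was called in striatum as well (0.66, SE 0.16, adjusted p = 0.0352), and its interaction ranged from -0.44 to -0.12 with 1 library left out.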

How the data were processed

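Prefrontal cortex and striatum were profiled by stranded mRNA sequencing, with 500 ng of RNA of integrity number 8.9 or more and 101 bp read pairs, per the labels' protocols. The authors deposited whole-number read counts per gene symbol in 1 table. The submitters' processing notes list STAR 2.7.1a, featureCounts and mm10. They give neither an annotation nor a strand setting nor a rule for reads with several matches, so counts of overlapping genes and close copies are uncertain.

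Of 21872 symbols, 18140 were above 0 in any library. Of these, 1830 hold only multiples of 11 in all 12 libraries and so may not be read counts. They were dropped from the fit and its library sizes; 788 of them would have passed its filter. Their share was at most 0.496% of a library's counts.

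The quasi-likelihood test of edgeR 4.0.16 (R 4.3.3) was run on all 12 libraries after filterByExpr, which kept 14545 genes, and TMM scaling. The model held the 4 groups and left 8 residual degrees of freedom. P-values are two-sided and adjusted by Benjamini and Hochberg over all 14545 genes. Standard errors are the log2 effect over the root of the F statistic. CPM are counts over the total of the whole table, and summed marker levels take members as deposited. The fit was tested on simulated data that gave each gene the same spread in both regions. That test cannot show how the unequal spread of the regions acts on the calls. Alternatives used DESeq2 1.42.0, limma 3.58.1, other scalings and filters, the replicate number as a block, a correction for GC content and length, and fewer libraries.

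Gene positions come from GENCODE M21 on the same build. Named genes are the called genes with the largest interaction (at least 1 CPM on average, libraries apart in the region of the larger effect), those with opposite or region-limited effects, the 4 lowest p of each gene list, and 10 dopamine-system genes whatever their values. Members and lists were chosen with earlier results of these data known. For 2 genes under this rule no result is given here; counts still include both. Lists are described by counts and medians with no test of their own.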

Additional observations from a re-analysis of the deposited data

Results flagged for a closer look

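For 11 named genes the lesion effect in striatum differed from that in prefrontal cortex by a test of the difference itself (edgeR's quasi-likelihood test, Benjamini-Hochberg adjustment over 14545 genes). The differences in log2 fold change, striatum minus prefrontal cortex, were -2.22 for Fmod (adjusted p = 0.0125), -5.85 for Prg4 (0.0161), -2.68 for Slc22a6 (0.0161) and -0.66 for Cux2 (0.0287). They were -1.67 for Slc6a13 (0.0378), -4.72 for Mpzl2 (0.0378), -1.87 for Aldh1a2 (0.0393), -1.82 for Ogn (0.0393), 1.72 for Inhba (0.0393), -4.67 for Cdh1 (0.0393) and -1.21 for Thbd (0.0486). In each of the 11 the striatal libraries of lesioned and control groups did not overlap (6 of 6 libraries on the side of the effect), against 26.3% of all tested genes. These libraries gave the calls, and the naming rule asked for this in the region of the larger effect, so it adds no evidence. No gene was called at an adjusted p below 0.01, and 20 were called below 0.1.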

How the results depend on the processing

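The 12 calls became 5 with the multiples of 11 kept as deposited, 116 with DESeq2, 2 with limma-voom and 5 with limma-voom in each region alone. Limma-voom with quality weights per group gave 0 calls (1695 genes at an unadjusted p below 0.05). With 1 library left out the count ranged from 0 to 172, and it was 101 without lesioned striatum 1 and control striatum 2. Other scalings and filters, division by 11, and a correction for GC content and length gave 9 to 12 calls. With the replicate number as a block there were 6 calls, 5 of them shared, and also 6 with the GC and length correction added. With the number as a block within lesioned and within control there were 0 (1646 at an unadjusted p below 0.05). The labels do not say that the numbers pair the libraries. Within lesioned or within control, deviations of same-numbered libraries of the 2 regions correlated between -0.01 and 0.15. Those of differently numbered libraries correlated between -0.17 and 0.09. These ranges overlap, and whether the numbers mark animals was not tested.

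The class of opposite signs leaves out genes limited to striatum, so the limit moves genes between classes without changing their signs. Its 2 genes became 5 with a limit of 0.32 on the log2 scale and 1 with 2-fold. They became 0 at an adjusted p below 0.01 and 7 below 0.1. The 6 genes limited to striatum became 0, 11 and 0 under the first 3 of these settings, and the 4 of the same sign became 7, 0 and 0.

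Among single genes, Slc18a2 (0.12) changed sign: -0.58 with limma-voom with or without quality weights, -0.57 with each region alone, -0.14 with the block by lesion, and -0.62 to 0.62 with 1 library left out. The median of cortical excitatory markers (-0.55) lay between -0.67 and 0.43 with 1 library left out, the latter without control striatum 2, and was 0.21 without both libraries. All 12 called genes kept their sign in every setting run. Of the values of the 11 named among them, 82 with 1 library left out and 62 under other settings missed the threshold, against 50 and 103 that passed. For these results the causes were not tested. Depth limits Prg4, Mpzl2 and Cdh1, which had 3 summed counts each in lesioned striatum, and the 3 libraries a group limit every other value.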
